A study of Homo sapiens with 6 samples.

Results

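Polyamine supply was described through 10 genes in RNA-seq libraries of C4-2B cells. The genes were the synthesis genes ODC1, AMD1, SRM and SMS, the breakdown genes SAT1, SMOX and PAOX, the antizyme genes OAZ1 and OAZ2, and the antizyme inhibitor gene AZIN1. They were taken by gene symbol, and all 10 were listed in each of the 6 deposited tables, among 26786 genes listed in any of the 3 experiments and 13398 listed in all 3. Their Entrez gene identifiers and chromosomes are 4953 on 2 (ODC1), 262 on 6 (AMD1), 6723 on 1 (SRM), 6611 on X (SMS), 6303 on X (SAT1), 54498 on 20 (SMOX), 196743 on 10 (PAOX), 4946 on 19 (OAZ1), 4947 on 15 (OAZ2) and 51582 on 8 (AZIN1). C4-2B, a human line descended from LNCaP, is a model of prostate cancer in bone. Each of the 3 experiments held 1 treated and 1 vehicle library of this single line. The treated cells received SR2211 at 5 µM, XY011 at 5 µM or enzalutamide (ENZ) at 20 µM, and RNA was collected after 48 h. SR2211 is an inverse agonist of the nuclear receptor RORγ, XY011 is known here by its code name alone, and ENZ is a clinical antiandrogen. All groups, the vehicles included, were grown in the same medium, made mostly with cds-FBS so as to mimic castration-resistant disease.

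Polyamines (putrescine, spermidine and spermine) are small positively charged molecules that bind nucleic acids and are needed for growth. ODC1 makes putrescine from ornithine, AMD1 decarboxylates S-adenosylmethionine to give the aminopropyl donor, and SRM and SMS add that group to make spermidine and then spermine. SAT1 acetylates spermidine and spermine, PAOX oxidises the acetylated forms, and SMOX oxidises spermine directly. Antizymes bind the ODC1 protein and direct it to the proteasome, and AZIN1, an inactive relative of ODC1, binds antizymes in its place. Prostate epithelium is known for its high polyamine output.

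Values in the SR2211 experiment were RPKM, and in the XY011 and ENZ experiments FPKM, both read or fragment numbers scaled to gene length and to library size. The depth of the SR2211 experiment, worked out from the values of microRNA genes, was 8.16 M mapped reads for the SR2211 library and 8.20 M for its vehicle. The depth of the other experiments was unknown. A change is the log2 of (treated + 1)/(vehicle + 1) in 1 experiment. Calls were made where its size reached 1. With 1 library per group this size rule has no replicate check and no p-value. All 9 prostate luminal markers (KLK3, KLK2 and others) were at 1 or more in each library, except ACPP at 0.86 FPKM with XY011. Their summed level was 947 RPKM with SR2211 and 2644 RPKM in its vehicle, 1034 FPKM with XY011 and 2648 FPKM in its vehicle, and 3044 FPKM with ENZ and 4988 FPKM in its vehicle. In bulk RNA, fewer cells of a type and less RNA per cell cannot be told apart. Of the markers of other cell types, none of the endothelial genes PECAM1, VWF and CDH5 reached 1 in a library. On the immune list PTPRC and CD3E did not reach 1, while CD68 was at 6.02 RPKM with SR2211 and 4.43 RPKM in its vehicle, at 13.1 FPKM with XY011 and 10.1 FPKM in its vehicle, and at 8.40 FPKM with ENZ and 8.62 FPKM in its vehicle. On the basal list KRT14 was at 0.296 RPKM with SR2211 and 1.33 RPKM in its vehicle, at 0.80 FPKM with XY011 and 3.02 FPKM in its vehicle, and at 1.53 FPKM with ENZ and 3.39 FPKM in its vehicle, thus below its vehicle in each treated library. TP63 did not reach 1 in a library, and KRT5 reached it in the ENZ vehicle alone. The neuroendocrine list, led by ENO2 and with CHGA under 1 or not listed, summed to 4.40 with SR2211 and 2.68 in its vehicle, to 3.23 with XY011 and 1.67 in its vehicle, and to 11.6 with ENZ and 10.3 in its vehicle. The fibroblast list, led by COL1A1, summed to 5.80 with SR2211 and 3.71 in its vehicle, to 3.45 with XY011 and 2.00 in its vehicle, and to 44.6 with ENZ and 28.1 in its vehicle, with LUM under 1 or not listed. Whether these lists had a part in the values below was not tested.

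Of the 4 synthesis genes, ODC1, SRM and SMS passed the size rule as lower with SR2211 and XY011, and ODC1 and SMS with ENZ. ODC1, whose product is the entry enzyme of the pathway, stood at 178 RPKM with SR2211 and 423 RPKM in its vehicle, at 101 FPKM with XY011 and 447 FPKM in its vehicle, and at 209.9 FPKM with ENZ and 438 FPKM in its vehicle. All 3 treated libraries lay below all 3 vehicles, which were close together. The log2 change was -1.25 with SR2211, -2.13 with XY011 and -1.06 with ENZ, so that ODC1 was called lower with every compound. In the SR2211 experiment the smallest whole read numbers that matched the values were 2991 with SR2211 and 7151 in vehicle, a ratio of 0.420 with an exact 95% interval of 0.402 to 0.439. This interval, like those below, covers counting error only, and true read numbers may be a multiple of those given. Among all genes tested, 2.74% had a lower change with SR2211, 1.20% with XY011 and 4.06% with ENZ.

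SMS, the spermine synthase gene, was lower with every compound. It stood at 73.2 RPKM with SR2211 and 217 RPKM in its vehicle, at 62.4 FPKM with XY011 and 221 FPKM in its vehicle, and at 58.8 FPKM with ENZ and 227 FPKM in its vehicle. The log2 changes were -1.55, -1.81 and -1.93 in the order SR2211, XY011 and ENZ, all called lower. With ENZ, 0.862% of the genes tested had a lower change than SMS. The read ratio with SR2211 was 0.338 (1116 reads with SR2211 and 3317 in vehicle, interval 0.316 to 0.362).

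SRM, the spermidine synthase gene, was lower with SR2211 and XY011 and close to its vehicle with ENZ. Its level was 102 RPKM with SR2211 and 225 RPKM in its vehicle, and 68.3 FPKM with XY011 and 224 FPKM in its vehicle. With ENZ it was at 218 FPKM and in that vehicle at 224 FPKM. SRM was called lower with SR2211 (log2 -1.14) and XY011 (-1.70), while its change with ENZ was -0.04, and 0.0025 after quantile scaling of the pair. Its read ratio with SR2211 was 0.453 (1060 reads with SR2211 and 2351 in vehicle, interval 0.421 to 0.487).

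AMD1 was the 1 synthesis gene that the size rule called in no comparison. It stood at 172 RPKM with SR2211 and 303 RPKM in its vehicle (log2 -0.81), at 218 FPKM with XY011 and 261 FPKM in its vehicle (-0.26), and at 208 FPKM with ENZ and 246 FPKM in its vehicle (-0.24). The read ratio with SR2211 was 0.569 (4809 reads with SR2211 and 8489 in vehicle, interval 0.549 to 0.590). In the RefSeq annotation AMD1 has 4 named pseudogenes and shares its span with CDK19 and the small RNA gene SNORA40C, so reads may be split or shared among them. ODC1, SRM and SMS have 1, 3 and 1 such pseudogenes, and ODC1 holds SNORA80B.

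**Figure D1:**
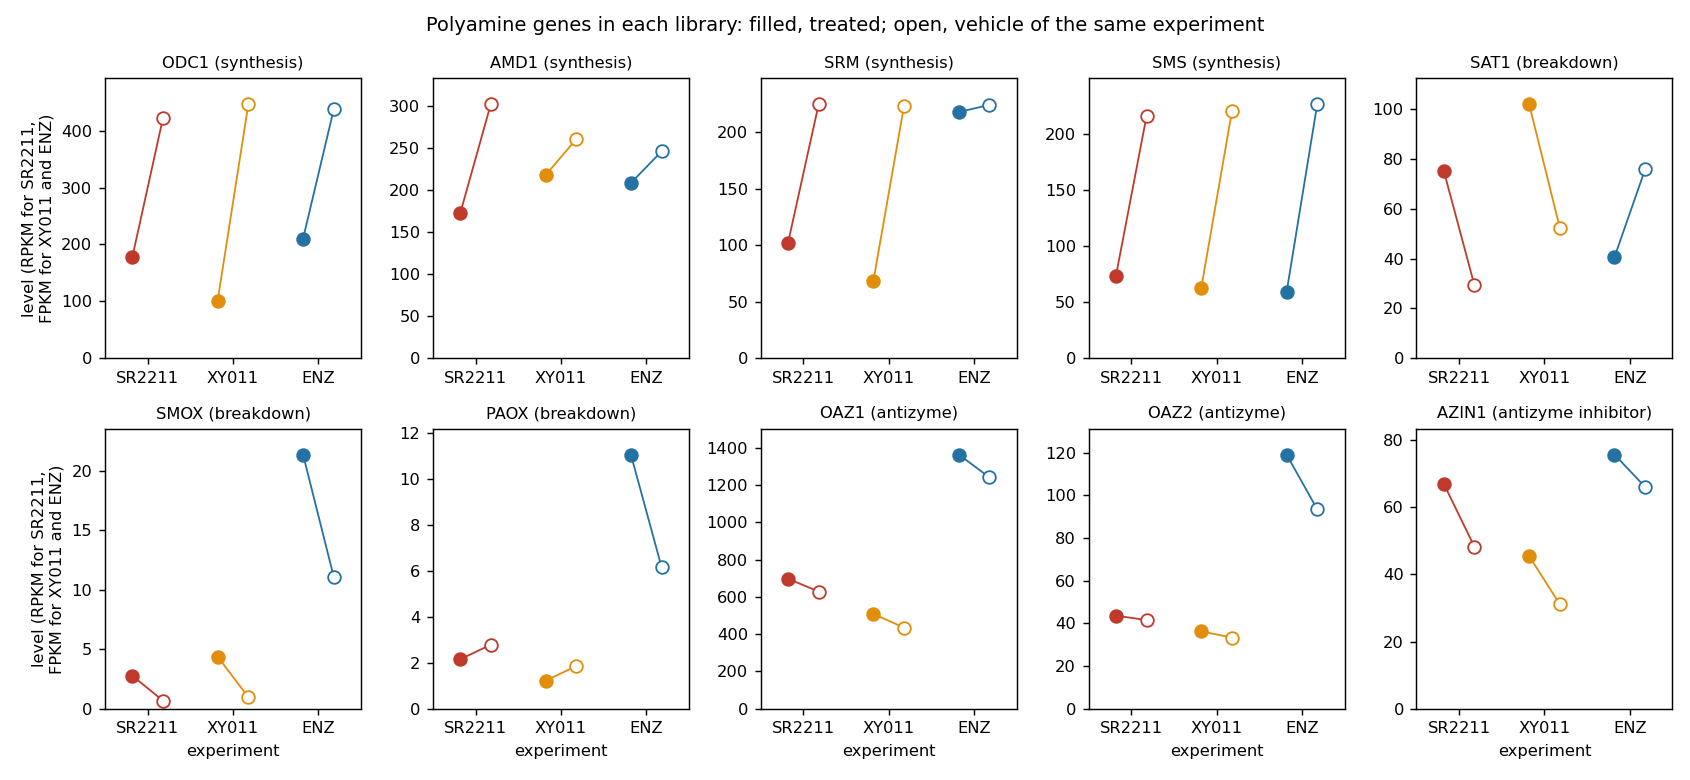
Levels of the 10 genes in each library, in RPKM for the SR2211 experiment and FPKM for the XY011 and ENZ experiments, on linear axes from 0. Filled points are treated libraries, open points to their right the vehicle of the same experiment, with 1 library each and therefore no error bars. For ODC1, AMD1, SRM and SMS every filled point lies below every open point. Lines join the libraries of an experiment, and for SAT1 the filled point is the upper one for SR2211 and XY011 and the lower one for ENZ.

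By the size rule, 3 of the 10 genes were lower with SR2211 (ODC1, SRM and SMS), where 5.75% of 12163 tested genes were lower. With XY011 the same 3 genes were lower, against 13.2% of 12630 genes. With ENZ 2 of 10 were lower (ODC1 and SMS), against 4.67% of 19247 genes. The median log2 change of the 4 synthesis genes was -1.19 with SR2211, -1.75 with XY011 and -0.65 with ENZ, beside -0.07, -0.14 and -0.02 for all tested genes. All genes of the XY011 pair had a median log2 ratio of -0.17, and relative to that shift the changes were -1.96 for ODC1, -1.64 for SMS, -1.53 for SRM and -0.09 for AMD1.

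For all 4 synthesis genes every treated library was below every vehicle library, although SRM with ENZ (218 FPKM) was close to the lowest vehicle (224 FPKM). AMD1 with XY011 was at 218 FPKM beside a lowest vehicle of 246 FPKM, and its centred change there was -0.09. Of 11138 genes tested in all experiments, 7.94% had all treated libraries below all vehicles and 5.84% had them all above, and none of the 10 genes was of the second kind. The tables were normalised separately, so levels set across experiments are a description. The synthesis genes had vehicle levels that differed little between experiments. The highest vehicle was 1.01 times the lowest for SRM, 1.05 times for SMS, 1.06 times for ODC1 and 1.23 times for AMD1, where the median of 10721 genes at 1 or more was 1.94 times. The other 6 genes had vehicles between 2.12 and 16.3 times apart, AZIN1 and SMOX being at the ends of that range.

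ODC1 and SRM share a sequence feature that is known as a binding site of MYC and related factors, and their promoter windows are shown for it. The E-box CACGTG, which reads the same on both strands, was searched in the RefSeq windows (GRCh38.p14) from 250 bases before to 50 bases after each transcript start. Windows were held for 7 of the 10 genes, 10 windows in all, and the E-box was found in 1 of 2 windows of ODC1 and in the window of SRM, where 7.26% of 35116 windows of all genes hold it. Capitals mark the E-box. The SRM window is chr1:11059969-11060268, minus strand, with the E-box beginning 199 bases before the start. The ODC1 window is chr2:10447963-10448262, minus strand, around a start 315 bases downstream of the other annotated one, with E-boxes beginning 29 bases before the start and at its base 6.
SRM: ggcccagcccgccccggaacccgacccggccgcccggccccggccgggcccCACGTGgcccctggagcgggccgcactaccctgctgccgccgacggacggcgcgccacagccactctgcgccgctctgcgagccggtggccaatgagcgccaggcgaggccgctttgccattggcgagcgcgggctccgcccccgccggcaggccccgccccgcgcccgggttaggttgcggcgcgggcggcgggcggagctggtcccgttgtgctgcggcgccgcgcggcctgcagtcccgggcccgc
ODC1: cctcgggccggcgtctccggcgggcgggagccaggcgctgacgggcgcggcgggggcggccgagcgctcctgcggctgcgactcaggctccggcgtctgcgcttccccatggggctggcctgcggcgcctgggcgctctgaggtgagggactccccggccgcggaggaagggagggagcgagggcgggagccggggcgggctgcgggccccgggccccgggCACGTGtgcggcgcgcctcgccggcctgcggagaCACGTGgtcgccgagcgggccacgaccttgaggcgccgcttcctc
A match is a description of these letters and not a measured binding site. MYC itself was at 69.0 RPKM with SR2211 and 125 RPKM in its vehicle, at 90.6 FPKM with XY011 and 102 FPKM in its vehicle, and at 191 FPKM with ENZ and 168 FPKM in its vehicle. No comparison called MYC (log2 -0.85, -0.17 and 0.19). ODC1 was called lower in all 3, and whether MYC had a part in its change was not tested.

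Breakdown genes did not share 1 direction. SAT1, the inducible acetyltransferase that starts polyamine breakdown, was at 75.4 RPKM with SR2211 and 29.3 RPKM in its vehicle, and at 102 FPKM with XY011 and 52.5 FPKM in its vehicle. With ENZ it was at 40.5 FPKM, and in that vehicle at 75.9 FPKM. The SR2211 and XY011 libraries were thus above their own vehicles and the ENZ library below its own. The log2 change was 1.33 with SR2211, which was called higher, 0.95 with XY011 and -0.89 with ENZ, neither of which was called. After centring, the change with XY011 was 1.12 and passed the size rule. The read ratio with SR2211 was 2.57 (738 reads with SR2211 and 288 in vehicle, interval 2.24 to 2.96). In RefSeq SAT1 overlaps LOC127933115, so reads may be shared between them and its value is uncertain. The vehicles themselves ranged from 29.3 to 75.9, and the SR2211 library lay inside that range, so the response of SAT1 was visible within experiments and not across them.

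SMOX, the spermine oxidase gene, was low in all libraries of the first experiments. It stood at 2.78 RPKM with SR2211 and 0.678 RPKM in its vehicle, at 4.37 FPKM with XY011 and 0.97 FPKM in its vehicle, and at 21.4 FPKM with ENZ and 11.1 FPKM in its vehicle. Every treated library was above its own vehicle, with log2 changes of 1.17 (SR2211) and 1.45 (XY011), called higher, and 0.89 (ENZ), not called. Only 53 reads with SR2211 and 13 in vehicle lay behind the first pair, a ratio of 4.10 with an interval of 2.20 to 8.19. Since the pseudocount weighs on low values, its log2 change with SR2211 was 0.45 with a pseudocount of 5 and 1.89 with a pseudocount of 0.1, and with XY011 0.65 and 2.06. With a filter of 5 or more in either library SMOX was not tested in these experiments. SMOX overlaps LOC124904861 in RefSeq, so its value is uncertain for that reason too.

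PAOX, the acetylpolyamine oxidase gene, was at 2.15 RPKM with SR2211 and 2.79 RPKM in its vehicle, at 1.22 FPKM with XY011 and 1.86 FPKM in its vehicle, and at 11.1 FPKM with ENZ and 6.16 FPKM in its vehicle. Its changes were -0.27, -0.37 and 0.75 in that order, and none was called. With 33 reads with SR2211 and 43 in vehicle, the interval of the ratio (0.475 to 1.24) spanned equality.

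In all, 2 of the 10 genes were higher with SR2211 (SAT1 and SMOX), where 5.10% of all tested genes were higher, and 1 with XY011 (SMOX), where 7.59% were higher. With ENZ 0 of 10 were higher, and 3.67% of all genes were. The 1.5-fold rule called SMOX and PAOX higher with ENZ and SAT1 lower. It called 2231 of all 19247 genes tested with ENZ higher and 2389 lower. That rule also called AMD1 lower with SR2211, where 2094 of 12163 genes were lower. SAT1 was called higher with XY011 by it, where 2147 of 12630 genes were higher.

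**Figure D2:**
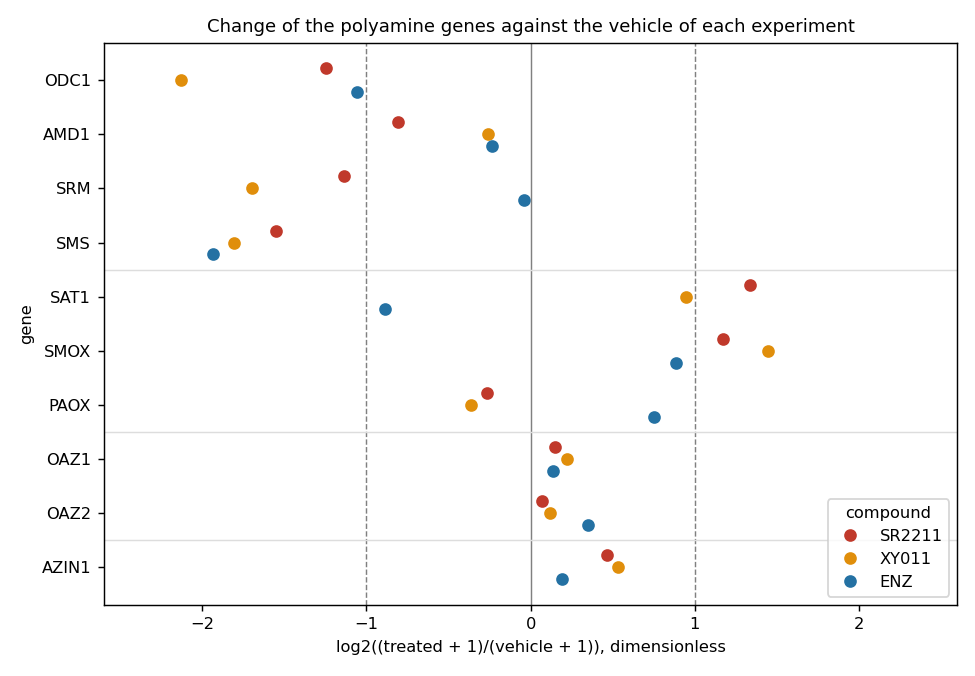
Log2 change of each gene against the vehicle of its experiment, with 1 point per compound (red SR2211, orange XY011, blue ENZ) and 1 pair of libraries behind each point. Dashed lines mark the size rule at -1 and 1. ODC1 and SMS lie left of the rule with every compound, SRM with SR2211 and XY011, while the antizyme genes stay between 0.07 and 0.35.

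Regulators of ODC1 protein had changes under the size rule, with SR2211 and XY011 smaller for OAZ1 and OAZ2 than for AZIN1. OAZ1 was at 697 RPKM with SR2211 and 628 RPKM in its vehicle, at 508 FPKM with XY011 and 435 FPKM in its vehicle, and at 1363 FPKM with ENZ and 1241 FPKM in its vehicle. Its log2 changes were 0.15, 0.22 and 0.14, and its read ratio with SR2211 was 1.11 (interval 1.07 to 1.15). OAZ2, a second antizyme gene, was at 43.7 RPKM with SR2211 and 41.6 RPKM in its vehicle, at 36.3 FPKM with XY011 and 33.4 FPKM in its vehicle, and at 119 FPKM with ENZ and 93.5 FPKM in its vehicle. The changes of OAZ2 were 0.07, 0.12 and 0.35, and the interval of its ratio with SR2211, 0.900 to 1.22, spanned equality. AZIN1 was at 66.9 RPKM with SR2211 and 48.2 RPKM in its vehicle, at 45.5 FPKM with XY011 and 31.1 FPKM in its vehicle, and at 75.6 FPKM with ENZ and 66.0 FPKM in its vehicle. Its changes were 0.47, 0.53 and 0.19, with a read ratio of 1.39 for SR2211 (interval 1.27 to 1.52). Of the genes tested, 17.9% had a higher change than AZIN1 with SR2211, 18.7% with XY011 and 30.9% with ENZ. All 3 genes were above their own vehicle in each experiment, as were 2518 of the 11138 genes tested in all experiments. None of the 3 passed the size rule. OAZ1 has 1 named pseudogene.

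**Figure D3:**
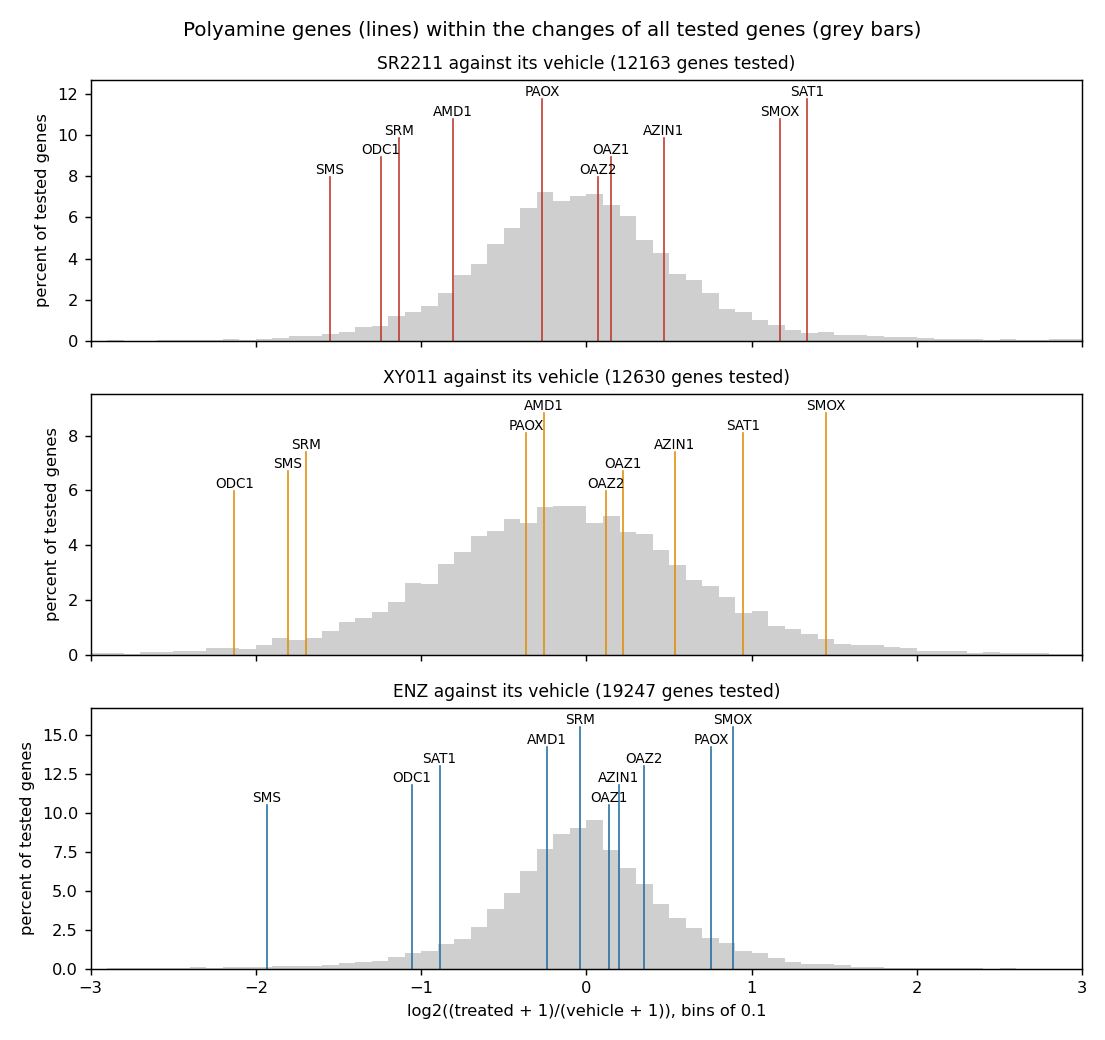
Position of the 10 genes (coloured lines) within the log2 changes of all tested genes (grey bars, percent of genes in bins of 0.1) for SR2211, XY011 and ENZ, with the axis drawn from -3 to 3. ODC1, SMS and, with SR2211 and XY011, SRM lie in the left tail, and the antizyme genes lie near the centre in each panel. Line heights serve to keep the names apart.

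Because a ratio of 2 genes within a library does not depend on library scaling, the balance between members was also read that way, on the RPKM or FPKM scale. OAZ1 was the highest of the 10 genes in every library except the XY011 vehicle, where ODC1 led. The OAZ1 to ODC1 ratio was 3.92 with SR2211 and 1.49 in its vehicle, 5.01 with XY011 and 0.973 in its vehicle, and 6.50 with ENZ and 2.83 in its vehicle. It was higher in each treated library than in any vehicle. The SAT1 to ODC1 ratio was 0.424 with SR2211 and 0.0693 in its vehicle, 1.01 with XY011 and 0.117 in its vehicle, but 0.193 with ENZ and 0.173 in its vehicle. That ratio was therefore 6.13, 8.60 and 1.11 times its vehicle in the same order. The SMS to SRM ratio was 0.717 with SR2211 and 0.961 in its vehicle, 0.914 with XY011 and 0.987 in its vehicle, and 0.270 with ENZ and 1.01 in its vehicle. In all vehicles these synthase genes were thus close to equal, and the ENZ library had the lowest ratio. The AMD1 to ODC1 ratio was 0.969 with SR2211 and 0.716 in its vehicle, 2.15 with XY011 and 0.583 in its vehicle, and 0.993 with ENZ and 0.562 in its vehicle.

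**Figure D4:**
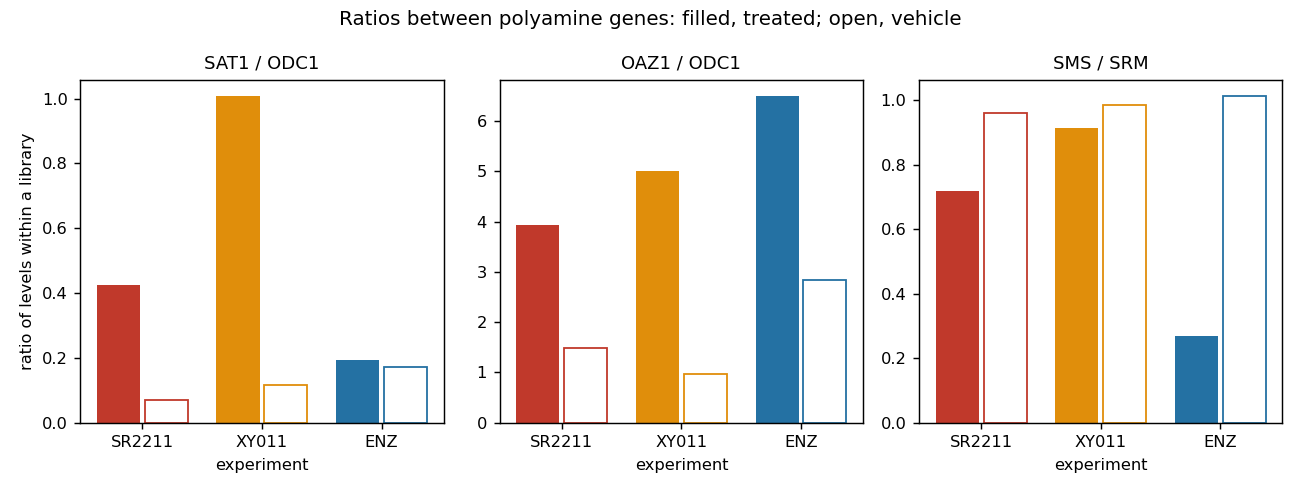
Ratios of levels between genes within a library (SAT1 to ODC1, OAZ1 to ODC1, SMS to SRM), on linear axes from 0. Filled bars are treated libraries and open bars to their right the vehicle of the same experiment, with 1 library per bar. SAT1 to ODC1 reached 1.01 with XY011 and 0.424 with SR2211 but 0.193 with ENZ, and SMS to SRM fell to 0.270 with ENZ, against 1.01 in its vehicle.

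The change shared by SR2211 and XY011 was tested with limma on 4 libraries, with experiment as a term, over 12075 genes. The fit has 1 residual degree of freedom and treats 2 compounds in 2 experiments as replicates. Its p-values draw on the spread between those and, with more weight, on a typical variance that limma estimates from all genes. This prior carried 5.24 degrees of freedom (SD 0.211), and the SE came to 0.194 for each of OAZ1, OAZ2 and AZIN1. A small adjusted p is therefore not a measure of agreement between the 2 experiments alone. SMS fell by 1.68 on the log2 scale (SE 0.20, limma adjusted p = 0.00750), ODC1 fell by 1.69 (SE 0.26, adjusted p = 0.0126) and SRM fell by 1.42 (SE 0.22, adjusted p = 0.0131), each lower in both experiments. SMOX rose by 1.31 (SE 0.20, limma adjusted p = 0.0123) and SAT1 by 1.14 (SE 0.21, adjusted p = 0.0177), each higher in both. The estimate for SMOX depended on the pseudocount, at 0.55 with a pseudocount of 5 and 1.97 with 0.1. A filter of a mean of 5 left SMOX out of the fit. AMD1 (log2 -0.53, adjusted p = 0.130), AZIN1 (0.50, 0.112), PAOX (-0.32, 0.271), OAZ1 (0.19, 0.503) and OAZ2 (0.09, 0.745) did not pass at 0.05 in limma. Of all genes fitted, 13.2% fell and 8.86% rose. With a pseudocount of 0.1 limma passed 0 of 12075 genes, with 4185 at an unadjusted p under 0.05, and the adjusted p of these 5 genes was then between 0.0581 and 0.0690. Over 8 alternatives (7 for SMOX) the adjusted p in limma ran from 0.000141 to 0.0600 for SMS, from 0.00111 to 0.0673 for ODC1, from 0.000644 to 0.0673 for SRM, from 0.00287 to 0.0581 for SMOX and from 0.00165 to 0.0690 for SAT1.

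Whether the change with ENZ differed from the change shared by SR2211 and XY011 was tested with limma on all 6 libraries, over 11914 genes, again with 1 residual degree of freedom. Here 1 ENZ pair is assumed to vary as the other pairs do. It differs from them in compound, dose, experiment and table at once, and these cannot be told apart. The difference, ENZ minus shared, was -2.03 for SAT1 (SE 0.36, limma adjusted p = 0.168), 1.38 for SRM (SE 0.38, adjusted p = 0.222) and 1.07 for PAOX (SE 0.33, adjusted p = 0.243). These 3 were at an unadjusted p under 0.05 in limma, as were 1887 of all 11914 genes. None of the 10 genes passed after adjustment, where 0.0168% of all genes passed as higher and 0.0252% as lower. SAT1 passed in limma after centring (adjusted p = 0.0468) and with trend and robust options (adjusted p = 0.0294), within a range of 0.0294 to 0.436 over 7 alternatives. For the other 7 genes the difference lay between -0.42 and 0.63, with an adjusted p in limma of 0.519 or more.

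Around these 10 genes, 40 others were read from lists of neighbouring steps. By the size rule 4 of the 33 tested were higher and 2 lower with SR2211, 4 of 34 higher and 7 lower with XY011, and 1 of 35 higher and 1 lower with ENZ. Of all tested genes, 5.10% were higher and 5.75% lower with SR2211, 7.59% and 13.2% with XY011, and 3.67% and 4.67% with ENZ. The median log2 change of the listed genes was -0.20, -0.22 and -0.02. Those medians stand beside -0.07, -0.14 and -0.02 for all tested genes.

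The methionine cycle and methylthioadenosine salvage list supplies and recycles the aminopropyl donor, and 0 of its 11 tested genes were higher and 4 lower with XY011, 1 higher and 2 lower with SR2211, and 0 higher and 1 lower with ENZ. The shares of all tested genes that were lower were 13.2% with XY011, 5.75% with SR2211 and 4.67% with ENZ. GNMT, which uses up S-adenosylmethionine by methylating glycine, was lower with all 3 compounds. It stood at 10.8 RPKM with SR2211 and 37.0 RPKM in its vehicle, at 12.2 FPKM with XY011 and 39.4 FPKM in its vehicle, and at 8.32 FPKM with ENZ and 58.8 FPKM in its vehicle. The change with ENZ, -2.68, was larger in size than that of any of the 10 genes in that comparison. GNMT overlaps PEX6 and a readthrough gene in RefSeq, so its value is uncertain. ADI1, a salvage dioxygenase gene, was lower with SR2211 (log2 -1.10) and XY011 (-1.48) and had a change of -0.72 with ENZ. MAT2A, which makes S-adenosylmethionine, was lower with XY011 (-1.24) and had changes of -0.68 with SR2211 and 0.25 with ENZ. The methionine synthase gene MTR was lower with XY011 (-1.01). MAT1A, higher with SR2211 (1.23), was at 1.94 RPKM with SR2211 and 0.250 RPKM in its vehicle.

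Among genes that supply arginine and ornithine, ASS1, the argininosuccinate synthase gene, was higher with SR2211 (log2 1.09) and XY011 (1.97) and had a change of 0.43 with ENZ. It was the 1 call among 6 tested genes of that list with SR2211 and among 7 with XY011, and 0 of 6 were called with ENZ. Called higher and lower were 5.10% and 5.75% of all tested genes with SR2211, 7.59% and 13.2% with XY011, and 3.67% and 4.67% with ENZ. ARG2, the arginase gene whose product releases ornithine for ODC1, had changes of 0.86, 0.20 and 0.44. On the list of other polyamine enzymes, regulators and carriers, SLC3A2, the heavy chain of amino acid transporters, was higher with SR2211 (1.23) and XY011 (1.83). The vesicular polyamine transporter gene SLC18B1 was higher with ENZ, at 10.5 FPKM with ENZ and 4.61 FPKM in its vehicle (1.03). OAZ3, an antizyme gene known from testis that overlaps MRPL9 and TDRKH, was lower with XY011 (-1.04). Hypusine modification uses spermidine to modify a lysine of the translation factor eIF5A. On its list EIF5A was lower (-1.38) and the deoxyhypusine synthase gene DHPS higher (1.27) with XY011. With SR2211 or ENZ 0 of its 4 genes were called. In RefSeq DHPS overlaps WDR83, ASS1 overlaps LOC124902349, and on the methionine list MAT2A overlaps GGCX and MTR overlaps RPSAP21. The values of DHPS, ASS1, MAT2A and MTR are therefore uncertain as well.

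Of 6 tested transcription regulators known to act on the pathway, 1 was higher and 0 lower with SR2211. With XY011 1 was higher and 1 lower, and with ENZ 0 were called. Shares of all tested genes were 5.10% higher and 5.75% lower with SR2211, 7.59% and 13.2% with XY011, and 3.67% and 4.67% with ENZ. ATF4, a regulator of amino acid supply genes, was higher with SR2211 (log2 1.48) and XY011 (2.20) and had a change of 0.60 with ENZ. MYC, MAX and NFE2L2 were called in no comparison.

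**Figure D5:**
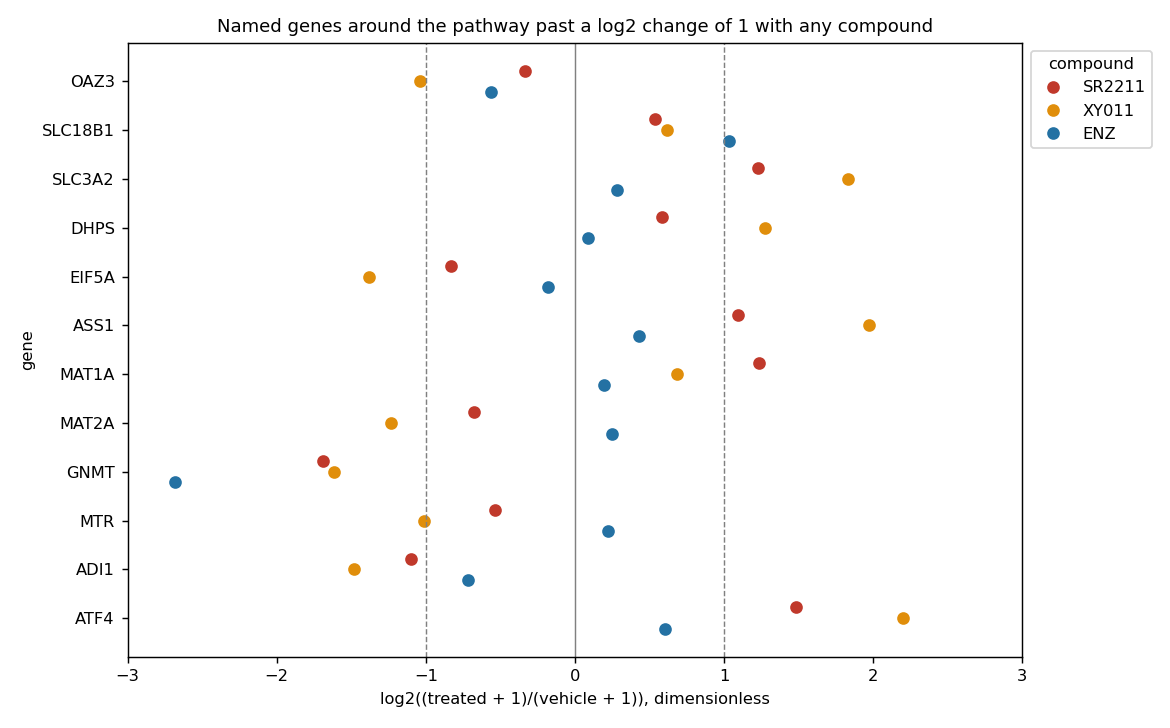
Log2 change of the named genes from the neighbouring lists that passed the size rule (dashed lines at -1 and 1) with at least 1 compound, in red for SR2211, orange for XY011 and blue for ENZ, with 1 pair of libraries per point. GNMT lies left of the rule with all 3 compounds, and SLC3A2, ASS1 and ATF4 lie right of it with SR2211 and XY011.

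Genes with the pattern most like that of ODC1 were found by the Euclidean distance of the 3 log2 changes among 11128 other genes. The nearest 4 were CSGALNACT1 (distance 0.11), RUNX1 (0.14), MTFP1 (0.17) and MIPEP (0.24). Nearest to SAT1 were UAP1L1 (0.28), ISG20 (0.37), HIVEP2 (0.40), CSRNP2 (0.41) and WIPI1 (0.43). The distance rests on 3 pairs of libraries and says nothing of shared control. The most similar pair of the 10 genes was OAZ1 and OAZ2, at a distance of 0.25, and ODC1 lay 0.98 from SMS and 1.11 from SRM.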

How the data were processed

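RNA-seq was analysed for 6 libraries of C4-2B cells, made from poly(A)-selected RNA with a TruSeq kit, per the labels' protocols. The deposited values are RPKM (SR2211 experiment) and FPKM (XY011 and ENZ experiments) made by the authors, per the file headers. Per the submitters' processing notes, the builds were GRCh37 and hg19, and the tools included Cufflinks, Cuffdiff, BWA and Bowtie. No source used here gives the tool behind each table, the annotation or the use of strand, so reads of overlapping genes cannot be told apart. Titles and agents gave the groups. The extraction protocol names another code in place of XY011, and for the ENZ pair it names SR2211. The vehicle of the ENZ experiment was paired with it through the treatment protocol.

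Tables were joined by Entrez identifier, and for ENZ by current or older symbol (16930 of 22738 lines, 1325 by an older name), lines of a gene being summed. AZIN2 was not matched in the ENZ table. That table lists no gene at 0 in its vehicle and 742 at 0 with ENZ.

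Genes with 1 or more in either library were tested, without small RNA genes. Reads of the SR2211 experiment were worked out from library size and the shortest gene length from 100 to 12000 bases that gave whole numbers, within 0.001, in both libraries. These lengths were searched, not taken from an annotation, which departs from the plan. Exact intervals are Clopper-Pearson at 95%. limma 3.58.1 in R 4.3.3 fitted log2(value + 1) over genes with a mean of 1 or more, without trend or robust options, with Benjamini-Hochberg adjustment and a prior of 5.24 degrees of freedom. The code was tested on simulated data. Python 3.11.15 and scipy 1.17.1 were used.

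The 10 genes and the lists were chosen with earlier results of these data known. Named genes are the 10, every listed neighbour past the size rule with any compound, and the 5 nearest to ODC1 and to SAT1. A few genes that this rule names are not reported here. MYC, ARG2 and other uncalled genes were named after their values were seen. The alternatives tried were the pseudocount, the filter, centring, quantile scaling, a 1.5-fold rule, the highest line of a symbol and, for limma, its options and a fit of all 6 libraries. The test of ENZ against the shared change was added after the data were seen.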

Additional observations from a re-analysis of the deposited data

Results flagged for a closer look

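SAT1 was below its vehicle with ENZ, at 40.5 FPKM with ENZ and 75.9 FPKM in its vehicle (log2 -0.89, not called). It was above its vehicle with both SR2211 (log2 1.33, called higher) and XY011 (0.95, not called). It was picked out because every SR2211 and XY011 library moved one way and the ENZ library the other, by a log2 value of 0.5 or more each. The difference between ENZ and the change shared by the other compounds was -2.03 on the log2 scale, and it did not pass in limma on 6 libraries (adjusted p = 0.168, range over 7 alternatives 0.0294 to 0.436). The ENZ pair also differed in dose, experiment and table, which cannot be told apart from the compound. Its vehicle level of SAT1 differed too, with 29.3 RPKM in the SR2211 vehicle and 52.5 FPKM in the XY011 vehicle.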

How the results depend on the processing

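Every comparison set a treated library against the vehicle of its own experiment, which is the pairing, and limma held it as a term; no fit without it was run, since the tables were normalised separately. With 1 library per group none could be left out. The highest line of a symbol applied to ENZ alone, since the other tables have 1 line per gene. The counts of lower members by size (3, 3 and 2 with SR2211, XY011 and ENZ) kept within 1.5 times under every alternative run. Higher members numbered 1 with SR2211 and 0 with XY011 under a pseudocount of 5, and likewise under a filter of 5, where SMOX dropped out; with XY011 they numbered 2 after centring, quantile scaling or the 1.5-fold rule, which also gave 2 with ENZ. Over all genes, a pseudocount of 0.1 gave 965 higher and 1054 lower with SR2211 and 1308 and 1452 with ENZ. A pseudocount of 5 gave 256 and 301 with SR2211, 394 and 665 with XY011, and 184 and 273 with ENZ. The 1.5-fold rule gave 1676 and 2094, 2147 and 3512, and 2231 and 2389 in that order, and a filter of 5 gave 458 and 525 with ENZ. Main counts were 620 and 699, 958 and 1664, and 706 and 899. The share of higher among called genes was 36.5% with XY011, and 49.8% after centring or 49.5% after quantile scaling; the share for limma was 40.2%, and 50.5% or 50.4%. In limma a pseudocount of 0.1 gave 0 higher and 0 lower genes (1070 and 1595 in the main fit), so that 0 members were higher and 0 lower. At an unadjusted p under 0.05 in that fit were 5 members and 4185 of all 12075 genes. A filter of a mean of 5 left 1 member higher, and quantile scaling gave 958 lower genes. AMD1 passed with trend and robust options (adjusted p = 0.0316, limma range 0.0316 to 0.212), as did AZIN1 (0.0456, range 0.0456 to 0.162). The test of ENZ against the shared change, added after seeing the data, gave 2 higher and 3 lower genes and 0 members. It gave 0 and 0 genes with a pseudocount of 0.1 or quantile scaling, 1 and 0 with a filter of 5, 18 and 46 after centring, and 17 and 40 with trend and robust options, and 1 member (SAT1) was lower under each of the last pair. SMOX, not called, was at -0.42 and turned to 0.16 with a pseudocount of 5. The cause of the other shifts was not tested. No called change of a member turned its sign. Unknown depth limits the XY011 and ENZ values, and 13 reads limit SMOX.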
